A study of Canis lupus familiaris with 12 samples.

Results

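The features described here are all 39 rows of the hippocampal table that lie on the mitochondrial sequence, that is, on the sequence that carries ND1, out of 31158 rows in all. They comprise 13 named protein-coding genes and 26 rows that the table names only by their first and last base. Of those 26, 22 rows are 60 to 75 bases long and are called tRNA rows below, 2 rows of 954 and 1580 bases are called rRNA rows, and 1 row of 1270 bases after the last gene is called the control region row. The remaining row is 37 bases long. These classes rest on length and place, since the table gives such rows no name, and no row is equated here with the tRNA of a given amino acid. The series compared beagles after rapid atrial pacing for 2 weeks, a way to induce atrial fibrillation, with beagles after a sham operation, and asked how the arrhythmia relates to cognitive impairment. It holds 12 samples, and the 6 used here are hippocampal mRNA libraries, 3 from paced dogs and 3 from sham-operated dogs. How RNA was selected for them is not stated in the labels. Reads in tRNA and rRNA rows therefore need not come from mature tRNAs or rRNAs. No age, genotype or treatment other than pacing or sham operation is given in the labels used here, and they do not state whether the samples are from separate dogs. The p-values therefore measure the spread between these samples, which may be technical.

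Mammalian mitochondrial DNA is a small circle that is transcribed from both strands into long precursor RNAs. tRNA genes lie between most of the ribosomal and protein-coding genes, and their excision releases the mature ribosomal and messenger RNAs. The messengers encode subunits of respiratory complexes I, III and IV and of ATP synthase, on which neurons depend for most of their energy. In mammals the origin of light-strand replication lies within a cluster of tRNA genes between ND2 and COX1, and the control region holds the promoters. Most, but not all, mature mitochondrial messengers carry short poly(A) tails, whereas tRNAs do not.

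Each library held between 35003483 and 51789497 assigned reads, and all 39 rows passed the filter on low values, a mean of at least 0.5 RPKM (reads scaled to row length and to the assigned reads of the library). Single rows held from 61 to 1377722 reads in a library. The part of counting error in the spread between libraries was not estimated. Neuronal markers were present in every library, but without a reference tissue they do not tell the hippocampus from other brain regions. SNAP25 had 601 to 1136 RPKM and PROX1 4.82 to 7.90 RPKM over the 6 libraries. The 6 neuronal markers summed to between 1207 and 1546 RPKM in pacing and between 856 and 1310 RPKM in sham. Of 4 cardiac muscle markers, MYL7 and NPPA did not exceed 1.04 RPKM in any library. TNNT2, cardiac troponin T, had 3.35, 11.01 and 5.96 RPKM in pacing, against 43.0, 82.8 and 2.94 RPKM in sham, and MYH6 reached 8.69 RPKM in sham replicate 2, so both were highest in a sham library and their part in the results was not tested. Sham replicate 2 stood apart from the other libraries on the first principal component of all features, at 39.6 against -13.5 to 8.61 for the rest. Fewer cells of a type and less RNA per cell cannot be told apart in these bulk samples. Neighbouring rows are not independent, since 8 pairs overlap by 1 to 43 bases and the strand setting and the handling of reads that touch several rows are not stated. Nuclear chromosomes of mammals carry copies of mitochondrial DNA, and how reads that match both were counted is not stated either, so levels of rows with close nuclear copies are uncertain.

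Mitochondrial rows took 8.70%, 8.34% and 9.19% of assigned reads in the 3 pacing libraries, against 8.50%, 7.23% and 6.05% in sham. Sham replicate 1 lay within the pacing values and the other sham libraries below them, so the arms overlapped. The mean share was 8.75 ± 0.429% in pacing and 7.26 ± 1.23% in sham (± SD with n = 3 each; two-sided exact permutation test, p = 0.2, where the smallest p that the design allows is 0.1). Without ATP6 and ATP8, the mitochondrial share was 5.58%, 5.28% and 5.67% in pacing, against 5.23%, 3.67% and 3.02% in sham, and the arms were apart by a narrow margin. The genes left out were those that differed least between the arms (log2 differences of -0.06 and 0.09), so leaving them out moves the arms apart. This share was not planned and carries no test.

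Levels differed widely between rows on the RPKM scale, which divides reads by row length. For very short rows this scale depends strongly on the length used. Rows 5179..5215 and 5212..5279, of 37 and 68 bases, held 989 and 960 reads in pacing replicate 1, but 616 and 325 RPKM. The order of short rows among long genes is therefore an order of RPKM and not of RNA amounts. ATP8 and ATP6, which encode the membrane subunits of ATP synthase and share an overlap of 43 bases, were highest, with means of 43734 and 34440 RPKM in pacing and 41190 and 35951 RPKM in sham. In pacing the next row was ND6, a subunit of complex I and the named gene on the minus strand, at 10436 ± 1053 RPKM, followed within that spread by the tRNA row 7735..7801 at 10286 ± 635 RPKM (all coordinates are bases of the mitochondrial sequence of the dog assembly CanFam3.1). In sham ND6 averaged 5734 ± 1365 RPKM, and 7735..7801 came next to ATP6 at 8847 ± 870 RPKM. The lowest rows in pacing were the tRNA row 1..69 at 67.2 ± 4.27 RPKM and the tRNA row 3768..3842 at 84.3 ± 8.24 RPKM. In sham these averaged 53.0 ± 11.8 and 87.9 ± 27.1 RPKM, and the tRNA row 3703..3771 was lowest at 51.4 ± 26.5 RPKM (SD, n = 3 each). Neighbours in this order with means closer than these SDs, such as 1..69 and 3703..3771 in sham, did not differ beyond their spread. The order of rows was close in both arms, with a Spearman rho of 0.98 across the 39 rows. Rows share libraries, reads and precursor transcripts, so this is a description only.

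**Figure D1:**
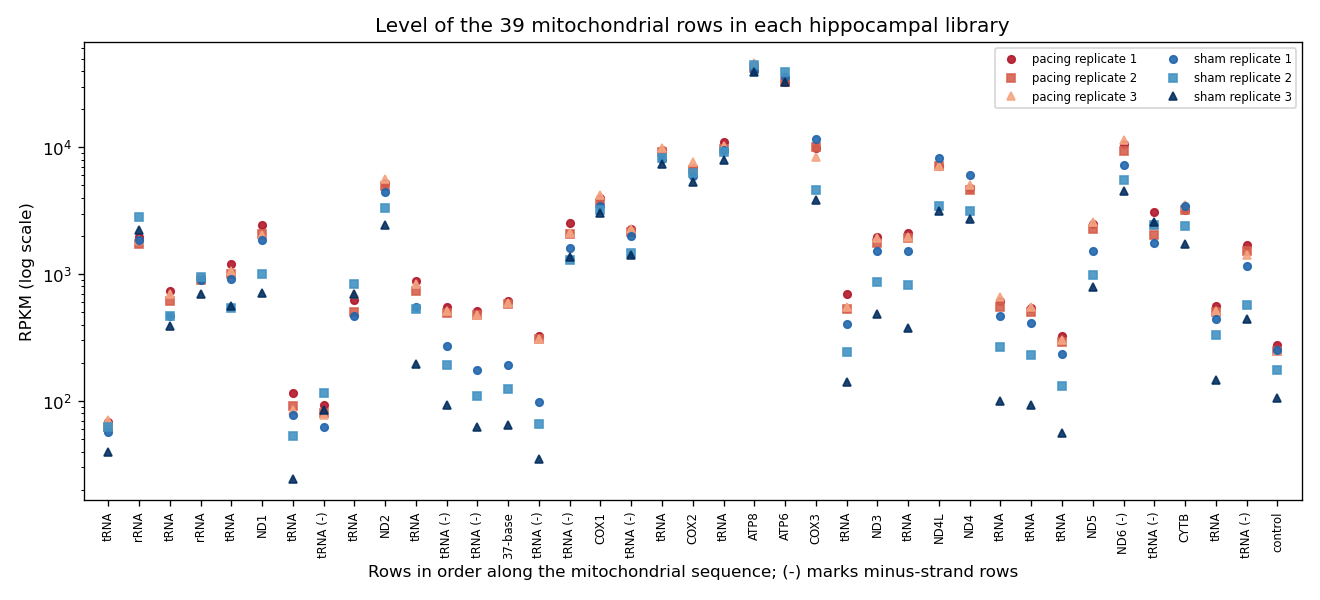
RPKM (log scale) of the 39 mitochondrial rows in order along the sequence, with a symbol for each of the 3 pacing and 3 sham libraries. ATP8 and ATP6 stand above all other rows, and the pacing symbols lie close together. The sham symbols spread downwards in many rows, most widely between ND4 and ND5, and lie furthest below pacing between ND2 and COX1.

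Pacing against sham was tested with limma-trend on log2(RPKM + 1) over all 16090 features with a mean of at least 0.5 RPKM, with Benjamini-Hochberg adjustment over all of them. None of the 39 mitochondrial rows passed an adjusted p of 0.05. Of all features tested, 0.0249% did, 0.0186% with higher and 0.00622% with lower levels in pacing. Mean levels were higher in pacing for 35 of the 39 rows and lower for 4, against 41.1% of all features with a positive log2 difference. The median log2 difference of the rows was 0.67, against -0.04 for all features. At an unadjusted p under 0.05 there were 22 rows higher and 0 lower, where 2.85% of all features were higher and 6.3% lower by that rule; voom, run on the recovered reads, also called 0 rows after adjustment. All 3 pacing libraries lay above all 3 sham libraries for 27 rows, or 20 of the 26 coordinate rows and 7 of the 13 genes, where 4.92% of all features did so. For 0 rows did all pacing libraries lie below sham, where 11.3% of all features did. A log2 difference above 1 was found for 14 of the 39 rows, against 0.28% of all features. Since most of these rows come from shared precursors and some overlap, they are not 39 separate observations.

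**Figure D2:**
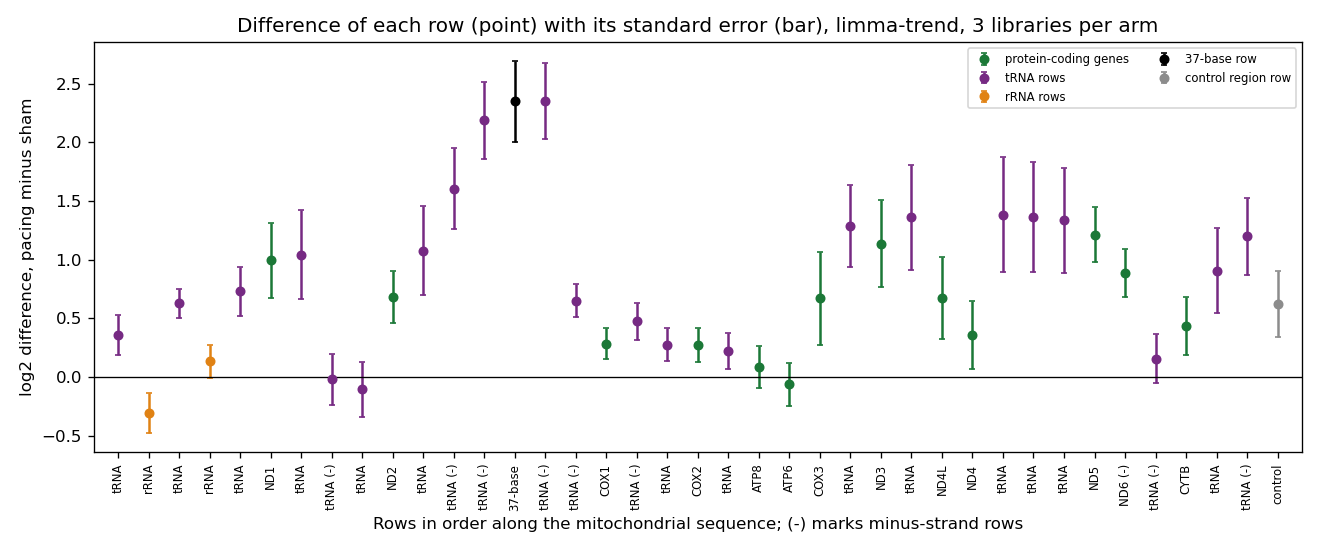
Log2 difference, pacing minus sham, of each mitochondrial row with its standard error (limma-trend, 3 libraries per arm), in order along the sequence and coloured by class. The largest values, up to 2.35, lie between ND2 and COX1, ATP8 and ATP6 lie within their standard errors of 0, and the first rRNA row is the lowest at -0.31.

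The largest differences lay in the 6 rows between ND2 and COX1, a stretch that holds 5 tRNA rows and the 37-base row. The tRNA row 5212..5279 on the minus strand had 325, 310.3 and 310.1 RPKM in pacing, against 98.1, 65.3 and 35.0 RPKM in sham. Its lowest pacing library was 3.16 times its highest sham library. The log2 difference was 2.35 with a standard error of 0.33 (limma, adjusted p = 0.151), and the reads behind it were 960, 863 and 738 in pacing against 333, 230 and 87 in sham.

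The 37-base row 5179..5215 on the plus strand had 616, 578 and 590 RPKM in pacing, against 192, 124 and 65.0 RPKM in sham (log2 difference 2.35, SE 0.34; limma, adjusted p = 0.175). Every pacing library was again at least 3.02 times the highest sham library. It shares 4 bases with 5212..5279 on the other strand, and the numbers of reads in the 2 rows were within a ratio of 1.01 to 1.06 of each other in all 6 libraries. Whether the same reads were counted in both rows is not stated, and the values are best read as a single observation.

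The neighbouring minus-strand tRNA row 5107..5178 had 515, 473 and 474 RPKM in pacing, against 175, 110 and 61.9 RPKM in sham (log2 difference 2.19, SE 0.33; limma, adjusted p = 0.193). The next row upstream, 5037..5105, also on the minus strand, had 551, 496 and 508 RPKM in pacing, against 270, 192 and 93.5 RPKM in sham (1.61, SE 0.34; limma, adjusted p = 0.313). In both rows the arms were apart and sham replicate 3 was lowest. The rows at the borders of the stretch differed less. Row 4956..5023, next to ND2, averaged 818 ± 70.3 RPKM in pacing and 427 ± 201 RPKM in sham (log2 difference 1.08), and row 5280..5347, next to COX1, averaged 2234 ± 253 RPKM in pacing and 1422 ± 160 RPKM in sham (0.65; SD, n = 3 each). In all 6 rows the arms did not overlap. Over all features, 0.0684% had a lowest pacing library at least 2 times the highest sham library, and among the 39 rows 3 did, all in this stretch. These 3 include 5179..5215 and 5212..5279, the overlapping pair best read as a single observation, here and in the counts of called rows. Values rescaled to the mitochondrial reads of each library set the difference in total share aside, and gave log2 differences of 2.08 for 5212..5279, 2.07 for 5179..5215 and 1.91 for 5107..5178. Whether the 3 rows were called then depended on the other features. With the mitochondrial rows alone rescaled, an alternative chosen after the data were seen, none was called (limma, adjusted p = 0.0734, 0.0943 and 0.105 in that order). With the whole table rescaled all 3 were called (limma, adjusted p = 0.00111, 0.00149 and 0.00246), but the median of all features then stood at -0.26 and 34 features were called. Over all 18 alternatives their adjusted p ranged up to 0.821, reached when pacing replicate 1 was left out, and their log2 differences stayed between 1.80 and 2.71.

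**Figure D3:**
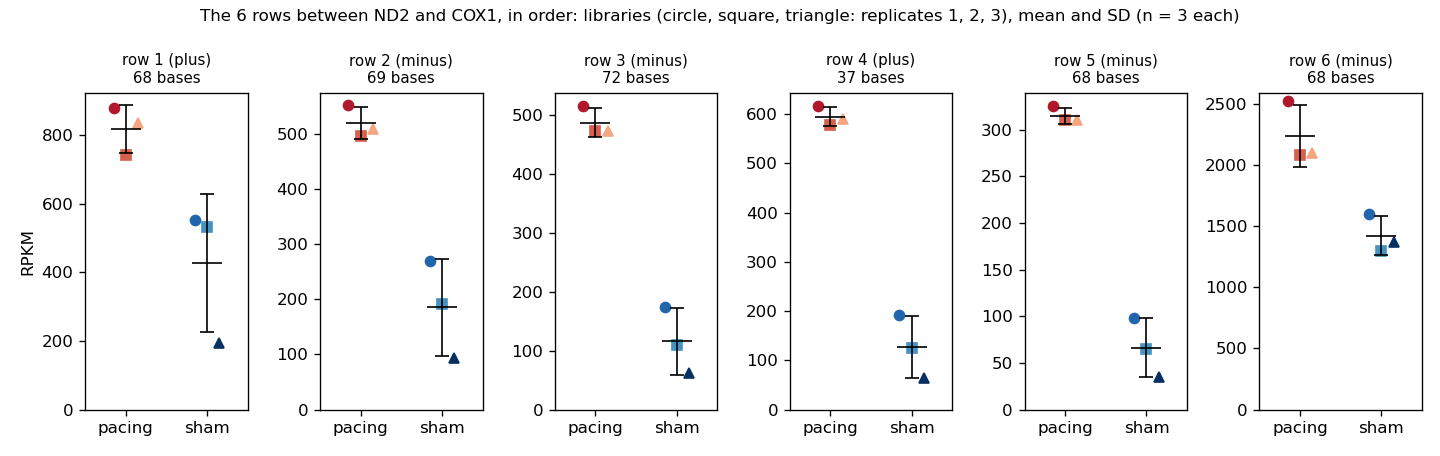
RPKM of the 6 rows between ND2 and COX1 in order along the sequence (row 1 is 4956..5023 and row 6 is 5280..5347), each library with the mean and SD of its arm; vertical scales differ between panels and start at 0. All pacing libraries lie above all sham libraries in every panel, and the gap is widest in rows 3 to 5, where pacing lies between 310.1 and 616 RPKM and sham between 35.0 and 192 RPKM.

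Of the 13 protein-coding genes, the 7 ND genes, which encode subunits of respiratory complex I, all had higher means in pacing, with log2 differences from 0.36 for ND4 to 1.21 for ND5. ND5, a proton-pumping subunit, had 2490, 2266 and 2568 RPKM in pacing, against 1510, 978 and 786 RPKM in sham (log2 difference 1.21, SE 0.23; limma, adjusted p = 0.273). Every pacing library was at least 1.5 times the highest sham library, the widest gap outside the stretch between ND2 and COX1. ND6, which overlaps ND5 by 17 bases on the opposite strand, had 10511, 9348 and 11450 RPKM in pacing, against 7213, 5467 and 4521 RPKM in sham (0.89, SE 0.20; limma, adjusted p = 0.332). The arms were apart for ND1, ND2 and ND3 as well. ND3 had 1967, 1760 and 1930 RPKM in pacing, against 1519, 860 and 481 RPKM in sham, and ND1 had 2451, 2072 and 2047 RPKM in pacing, against 1842, 1005 and 710 RPKM in sham. In each of these genes sham replicate 1 was nearest to the pacing libraries and sham replicate 3 was lowest.

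ND4 and ND4L, which mammals translate from a shared messenger, differed from the other ND genes in that sham replicate 1 lay above every pacing library. ND4L had 7167, 7154 and 7055 RPKM in pacing, against 8210, 3421 and 3166 RPKM in sham, so the pacing libraries agreed closely and the sham libraries spread over 2.59-fold. ND4 had 4738, 4629 and 5007 RPKM in pacing, against 6060, 3155 and 2720 RPKM in sham. The ratio of ND5 to ND4 within a library was therefore 0.525, 0.489 and 0.513 in pacing, against 0.249, 0.310 and 0.289 in sham. This ratio does not depend on the scaling between libraries, and all pacing values lay above all sham values. CYTB, the complex III subunit that follows ND6, gave the same order, with a ratio of ND5 to CYTB of 0.744 ± 0.0372 in pacing and 0.434 ± 0.0241 in sham (n = 3 each, ± SD). These ratios, and those given below, were chosen after their values were seen and carry no test.

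The complex IV genes, which encode the core subunits of cytochrome c oxidase, had unlike patterns. COX1 had 3945, 3637 and 4236 RPKM in pacing, against 3422, 3223 and 3040 RPKM in sham (log2 difference 0.29, SE 0.13; limma, adjusted p = 0.559). COX2 averaged 7059 ± 522 RPKM in pacing and 5853 ± 513 RPKM in sham (0.27; n = 3 each, SD). Their arms were apart by small margins, and the ratio of COX2 to COX1 was 1.79 ± 0.0488 in pacing and 1.81 ± 0.128 in sham. COX3, which lies beyond ATP6, had 9817, 9955 and 8449 RPKM in pacing, against 11650, 4576 and 3822 RPKM in sham, so that sham replicate 1 was the highest of all 6 libraries and the other sham libraries the lowest.

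CYTB had 3179, 3195 and 3478 RPKM in pacing, against 3471, 2391 and 1720 RPKM in sham (log2 difference 0.44; limma, adjusted p = 0.615), with sham replicate 1 among the pacing values. ATP8 and ATP6 differed least of the genes, by log2 values of 0.09 and -0.06, each smaller than its standard error of 0.18. ATP6 was at 32931, 32448 and 37943 RPKM in pacing and at 36027, 39064 and 32762 RPKM in sham, and its sign turned under median-of-ratios scaling. The 5 neighbouring rows from 6966..7033 to ATP6, which include COX2 and ATP8, spanned no more than 1.21-fold among the sham libraries.

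The rRNA rows differed from most other rows in sign or size. Row 70..1023, the shorter of the pair, had 1947, 1719 and 1851 RPKM in pacing, against 1852, 2834 and 2230 RPKM in sham (log2 difference -0.31, SE 0.17; limma, adjusted p = 0.618), the most negative value of the 39 rows. Row 1091..2670 averaged 918 ± 21.7 RPKM in pacing and 844 ± 134 RPKM in sham (0.13; SD, n = 3 each). The ratio of the shorter to the longer rRNA row was 2.08, 1.92 and 2.00 in pacing, against 2.07, 2.999 and 3.22 in sham, so sham replicate 1 again lay among the pacing libraries.

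The tRNA row 1024..1090, which lies between the rRNA rows, did not follow them. It had 730, 618 and 693 RPKM in pacing, against 464, 465 and 388 RPKM in sham (log2 difference 0.63, SE 0.12; limma, adjusted p = 0.28). Here the sham libraries were within 1.20-fold of each other and all below pacing. The tRNA row 2671..2744, between the longer rRNA row and ND1, averaged 1083 ± 103 RPKM in pacing and 670 ± 206 RPKM in sham (0.73), with the arms apart.

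Over the 22 tRNA rows, 20 had higher means in pacing and 19 had their arms apart, with a median log2 difference of 0.98. Reads in tRNA rows of mRNA libraries need not measure mature tRNAs. The 3 rows between ND4 and ND5 had nearly equal differences. Row 11579..11647 had 615, 552 and 655 RPKM in pacing, against 468, 265 and 99.9 RPKM in sham, and the log2 differences of the 3 rows were 1.38, 1.36 and 1.34. These rows had the widest spread among the sham libraries of all 39, from 4.20-fold to 4.68-fold, beside 1.08-fold to 1.19-fold among the pacing libraries. The rows on either side of ND3 resembled them. Row 9428..9495 averaged 590 ± 89.1 RPKM in pacing and 262 ± 131 RPKM in sham (log2 difference 1.29), and row 9842..9910 averaged 2007 ± 100 RPKM in pacing and 909 ± 580 RPKM in sham (1.36; SD, n = 3 each).

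Beyond CYTB, the tRNA rows 15323..15392 and 15392..15457 had log2 differences of 0.91 and 1.20 and their arms apart. By contrast, 3 tRNA rows had overlapping arms. Row 3768..3842 averaged 84.3 RPKM in pacing and 87.9 RPKM in sham, row 3844..3913 averaged 609 RPKM in pacing and 668 RPKM in sham, and row 14110..14178, between ND6 and CYTB, averaged 2515 RPKM in pacing and 2252 RPKM in sham. The first of these overlaps row 3703..3771 by 4 bases on the opposite strand, and that row had 115, 91.1 and 85.7 RPKM in pacing, against 77.2, 52.9 and 24.2 RPKM in sham (log2 difference 1.04). The ratio of reads between these overlapping rows was as low as 0.262 in sham replicate 3, so unlike the pair at 5179..5215 they did not hold equal numbers. The control region row 15458..16727 averaged 258 ± 16.7 RPKM in pacing and 177 ± 72.3 RPKM in sham (0.63; SD, n = 3 each), with sham replicate 1 among the pacing libraries.

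The tRNA rows had median differences of 0.93 for the 8 annotated on the minus strand and 0.98 for the 14 on the plus strand. The strand setting of the counting is not stated, so reads in a row need not come from its annotated strand. These medians therefore cannot show whether strand matters, and the share below need not measure minus-strand RNA. All minus-strand rows together, with ND6, took 7.25%, 6.67% and 7.30% of mitochondrial reads in pacing, against 5.06%, 4.59% and 4.64% in sham. The arms were apart, and the difference of 2.31 percentage points had the smallest p the design allows (two-sided exact permutation test, p = 0.1; 0.25 adjusted over the 5 classes tested). Most of these reads were those of ND6.

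The other shares describe what mitochondrial reads consisted of. Protein-coding genes took 93.0 ± 0.369% of mitochondrial reads in pacing and 92.1 ± 1.14% in sham (exact permutation test, p = 0.4, and 0.4 adjusted over the 5 classes), a difference that turned negative when the rRNA rows were left out and when RPKM was summed instead of reads. rRNA rows took 3.83%, 3.66% and 3.51% in pacing, against 3.74%, 5.80% and 5.33% in sham (exact permutation test, p = 0.2; 0.25 adjusted over the 5 classes). tRNA rows took 3.14%, 2.88% and 2.79% in pacing, against 2.46%, 2.64% and 2.72% in sham, with the arms apart by a narrow margin (exact permutation test, p = 0.1; 0.25 adjusted over the 5 classes). The control region and 37-base rows took 0.400 ± 0.0312% in pacing and 0.307 ± 0.0783% in sham (exact permutation test, p = 0.2; 0.25 adjusted; SD, n = 3 each). Within the protein-coding reads, ATP6 and ATP8 held 35.9%, 36.7% and 38.3% of all mitochondrial reads in pacing, against 38.5%, 49.3% and 50.1% in sham. The ND genes held 31.3%, 30.4% and 30.7% in pacing, against 28.5%, 20.4% and 19.7% in sham. In both measures sham replicate 1 lay close to pacing and the other sham libraries lay far from it.

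**Figure D4:**
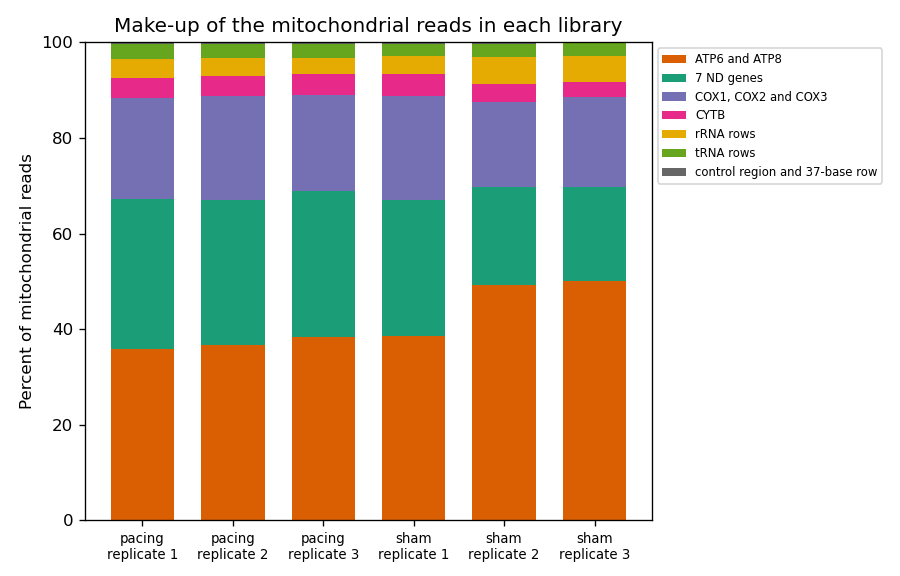
Percent of mitochondrial reads taken by each group of rows in each library, as stacked bars that sum to 100%. Sham replicates 2 and 3 have a larger ATP6 and ATP8 part (49.3% and 50.1%) and a smaller ND part (20.4% and 19.7%) than the other 4 libraries.

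The pacing libraries were alike in the mitochondrial rows and the sham libraries were not. The coefficient of variation within an arm had a median of 6.43% in pacing and 34.9% in sham over the 39 rows, and was larger in sham for 35 of them. Over all features the medians were 8.39% in pacing and 17.0% in sham, and 78.2% of features varied more in sham. Among the 624 nuclear features with a mean of at least 100 RPKM, nearer to these rows in level, 88.6% varied more in sham, so the count of 35 rows is not particular to them. Sham replicate 1 was the highest sham library in 28 rows, and sham replicate 3 was the lowest in 33. Relative to the mean of the pacing libraries, the median row stood at a log2 value of -0.31 in sham replicate 1, -0.68 in sham replicate 2 and -1.17 in sham replicate 3. Stretches of rows stood at unlike distances from pacing. The rows from 6966..7033 to ATP6 had medians of -0.13, -0.16 and -0.37 in sham replicates 1, 2 and 3, while those between ND2 and COX1 had medians of -1.21, -1.79 and -2.72. Elsewhere the sham libraries differed from each other in sign, as for COX3 at 0.31 in sham replicate 1, -1.04 in sham replicate 2 and -1.30 in sham replicate 3. Across the 39 rows, the log2 difference between arms and the fold from the lowest to the highest sham library had a Spearman rho of 0.77, a description over rows that share libraries and reads.

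**Figure D5:**
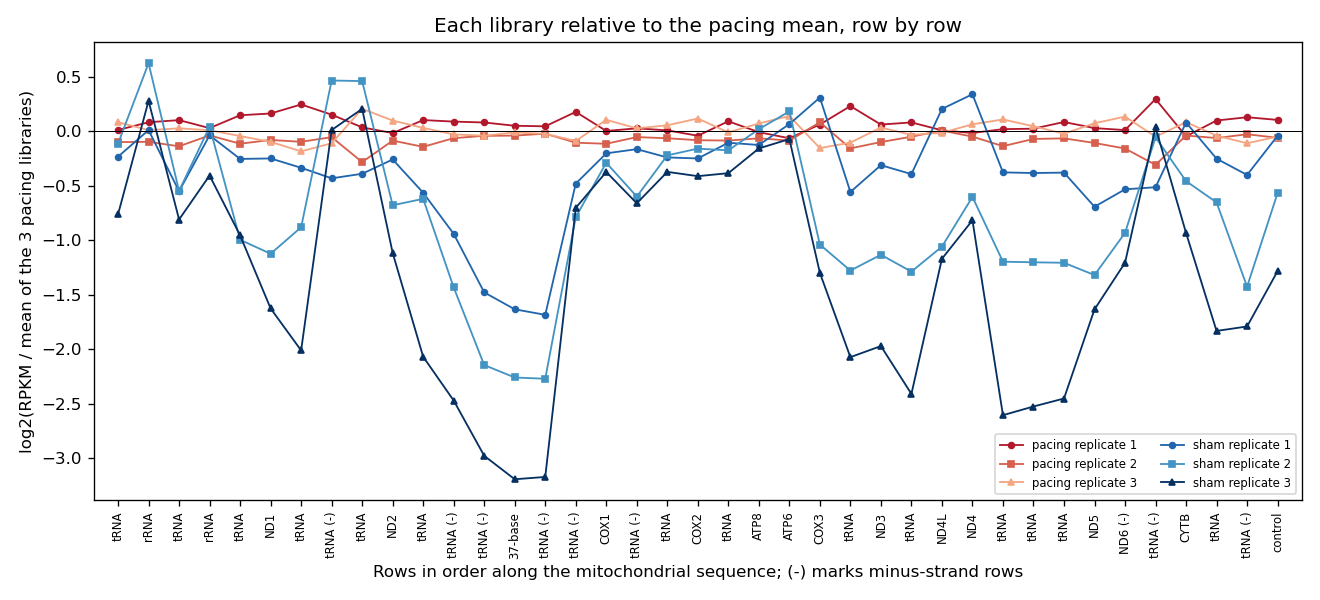
Log2 ratio of each library's RPKM to the mean of the 3 pacing libraries, row by row in order along the sequence. The pacing lines stay near 0, the sham lines stay between -0.41 and 0.18 from 6966..7033 to ATP6 and dip between ND2 and COX1, where sham replicate 3 reaches -3.19.

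Single libraries decided how many rows passed. Without sham replicate 1, 9 of the 39 rows passed, all higher in pacing, where 0.211% of all features passed in that direction. They were ND1, COX3, ND4L and ND5, the tRNA rows 2671..2744, 5107..5178, 5212..5279 and 15392..15457, and the 37-base row (limma, adjusted p from 0.0208 to 0.0461). In each of them sham replicate 1 was the highest sham library, so leaving it out moves the arms apart. With library weights, which gave sham replicate 2 the lowest weight, 3 rows passed, namely 5107..5178, 5179..5215 and 5212..5279, where 0.0994% of all features were called higher. In both counts the overlapping pair 5179..5215 and 5212..5279 is best read as a single observation. Leaving out any other library gave 0 rows. Of the 6 neuronal markers 0 passed, with a median log2 difference of 0.31. RBFOX3 had equal means, at 13.97 RPKM in each arm. The other neuronal markers had higher means in pacing, with log2 differences of 0.30 to 0.35. Summed levels of all 6 were 1244, 1546 and 1207 RPKM in pacing, against 1310, 856 and 1043 RPKM in sham. Sham replicate 1 lay within the pacing values in this sum, which was mostly SNAP25 (907 RPKM in pacing replicate 1 and 940 RPKM in sham replicate 1). Single markers differed. For SLC17A7 sham replicates 1 and 3 both lay among the pacing values, at 77.0 and 81.1 RPKM. For RBFOX3 sham replicate 1 lay above every pacing library, at 15.3 RPKM. The part of the neuronal markers in the mitochondrial values was not tested. The choroid plexus marker TTR, which encodes transthyretin, had 155, 70.5 and 103 RPKM in pacing, against 2.46, 449 and 42.9 RPKM in sham. The other choroid plexus markers did not all share this order. FOLR1 was also highest in sham replicate 2, at 1.53 RPKM, whereas KL and KCNE2 were lowest there, at 1.83 and 0.141 RPKM. The part of these markers was not tested. Of the 3 ependymal markers in the table, CCDC113 was at 27.5 ± 0.495 RPKM in pacing against 18.4 ± 1.91 RPKM in sham, whereas FOXJ1 was at 0.290 against 0.783 RPKM and HYDIN at 0.392 against 0.982 RPKM. All 3 had their arms apart and 0 passed, with a median log2 difference of -0.46 over the list. Over all features, 4.92% had pacing apart above sham and 11.3% apart below. The part of the ependymal markers was not tested either.

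Nuclear genes for transcription, processing and translation of mitochondrial RNA were examined beside the rows they serve. Of 98 gene names on 5 lists, 94 were in the table and tested, and 0 passed. The names PRORP and FASTKD4 were not found, but these genes were tested under the names KIAA0391 and TBRG4. The log2 difference was above 0 for 33 and below 0 for 61. Its median was -0.04, equal to that of all features to 2 decimals. At an unadjusted p under 0.05, 2 of the 94 were higher and 4 lower, beside 2.85% higher and 6.3% lower over all features. Among 14 tested genes of mitochondrial DNA transcription and replication, those of smallest p were POLRMT, the mitochondrial RNA polymerase, at 2.10, 1.77 and 1.21 RPKM in pacing against 0.888, 1.19 and 1.29 RPKM in sham (log2 difference 0.33; limma, adjusted p = 0.559), the termination-factor relative MTERF4 (-0.25) and the terminator MTERF1 (-0.20).

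Among 21 tested genes of mitochondrial RNA processing and decay, FASTKD5, needed for messengers that are not flanked by tRNAs, had 1.86, 1.995 and 1.81 RPKM in pacing, against 2.58, 2.66 and 2.56 RPKM in sham (log2 difference -0.32, SE 0.09; limma, adjusted p = 0.398). Its arms were apart and each was tight. PTCD2, a pentatricopeptide protein linked to CYTB messenger processing in mice, had 7.60, 9.26 and 7.06 RPKM in pacing, against 5.89, 3.41 and 5.19 RPKM in sham (0.64; limma, adjusted p = 0.399). SLIRP, the partner of LRPPRC in stabilising mitochondrial messengers, averaged 39.9 ± 4.25 RPKM in pacing and 30.8 ± 3.68 RPKM in sham (0.36; SD, n = 3 each).

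Genes of mitochondrial tRNA modification and charging had lower means in pacing in 23 of 28 tested, with a median log2 difference of -0.05 and 0 passing. HARS2, which charges histidine tRNA, averaged 9.42 ± 0.153 RPKM in pacing and 11.8 ± 0.588 RPKM in sham (-0.29; limma, adjusted p = 0.417), followed by PARS2 for proline (-0.29) and the tRNA modifier CDK5RAP1 (-0.21). Of 20 tested genes of rRNA modification and mitoribosome assembly, 9 had higher and 11 lower means, with the smallest p for METTL17 (-0.32), the rRNA methyltransferase MRM2 (-0.22) and the assembly factor MALSU1 (-0.16). Of 12 biogenesis regulators, 2 had higher and 10 lower means, with the smallest p for the deacetylase SIRT3 (-0.24), the transcription factor NRF1 (-0.17) and the coactivator PPRC1 (-0.15). The largest difference of any gene on the 5 lists was the 0.64 of PTCD2, on a scale that understates changes of low genes.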

How the data were processed

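The tools that the submitters' processing notes name are STAR 2.5.3a, featureCounts and Trimmomatic 0.36. Settings and annotation release were not given in those sources. The authors deposited hippocampal values as RPKM, per the file headers, with the coordinates and length of each row, and its versioned sequence names are those of CanFam3.1. RPKM multiplied by length gave whole reads for 100% of values in each library (tolerance 0.01), which gave read totals and shares. The exosome miRNA table was not used. Values were tested in R 4.3.3 with limma 3.58.1 (limma-trend, log2(RPKM + 1), mean RPKM of at least 0.5), two-sided, with Benjamini-Hochberg adjustment over all features at 0.05. Fold changes on this scale understate changes of low genes. Shares were tested by exact permutation over the 6 libraries in scipy 1.17.1. The fit was tested on simulated data. A planned count test was not run, because the deposited unit is RPKM, and limma-voom on recovered reads took its place after the data were seen. Members, gene lists and tests were chosen with earlier results of these data known. Named were all mitochondrial rows, the 3 genes of smallest p per nuclear list, and defining markers. No sequences are printed, since no sequence file was used here.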

Additional observations from a re-analysis of the deposited data

How the results depend on the processing

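Of 702 values of single rows over 18 alternatives, 30 turned sign, in 10 of the 39 rows, and 29 rows kept their sign throughout. Quantile scaling gave -0.067 for COX1, -0.15 for 6966..7033, -0.18 for COX2, -0.033 for 7735..7801 and -0.064 for 14110..14178, and 0 for ATP6 and ATP8. Scaling to mitochondrial reads, of the whole table or of the mitochondrial rows alone, gave -0.15 for 1091..2670, -0.0039 for 6966..7033, -0.010 for COX2, -0.061 for 7735..7801, -0.19 for ATP8 and -0.12 for 14110..14178. Row 3768..3842 turned to 0.044 under median-of-ratios scaling, 0.045 with library weights and 0.0036 when scaled to nuclear reads, and ATP6 to 0.0021 and 0.00032 under median-of-ratios scaling and library weights. Leaving out single libraries gave ranges of -0.24 to 0.20 for 3768..3842, -0.35 to 0.079 for 3844..3913, -0.011 to 0.30 for 14110..14178 and -0.0024 to 0.22 for 1091..2670. The cause was not tested.

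The count of rows that passed was 3 when the whole table was scaled to mitochondrial reads (34 of all features were then called), 0 when the mitochondrial rows alone were, 3 with library weights and 0 to 9 when single libraries were left out, the 9 without sham replicate 1. The median log2 difference lay between 0.47 and 0.97 with single libraries left out. Among all features 4 passed, against 7 with no filter, 7 with the replicate block, 7 at a threshold of 0.1, 23 with library weights and 3 to 95 with single libraries left out (95 without sham replicate 1, 9 without sham replicate 2). The share of protein-coding reads, 0.868 percentage points higher in pacing, turned to -0.397 with the rRNA rows left out and -2.21 from summed RPKM. Same-numbered libraries were not paired by the labels, and their deviations correlated at -0.11, 0.06 and -0.01; with the replicate block the mitochondrial rows gave 0 calls, as without it. The planned edgeR fit was not run, and voom in its place, chosen after the data were seen, gave 4 calls among all features, 0 among the rows and a median of 0.68. Nuclear list genes gave 0 calls under every alternative run. With 3 libraries per arm the exact tests cannot pass 0.05.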
